A study of Mus musculus with 6 samples.

Results

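The genes described here are those of MHC class I antigen presentation and peptide loading, namely B2m, H2-K1, H2-D1, H2-T23, Tap1, Tap2, Tapbp, Canx, Calr and Pdia3. They were taken by gene symbol from a table of ribosome-bound RNA in the mouse brain, and all 10 of these genes were among its 12968 genes. The table covers 6 libraries, each from the middle section of the left brain hemisphere of 1 mouse. The 3 mice of the MCAO group underwent 1 h of middle cerebral artery occlusion, a model of ischemic stroke, and were killed after 3 days; the 3 control mice had no occlusion, and a sham operation is not mentioned. RNA was obtained by RiboTag immunoprecipitation, in which Cre recombinase switches on an epitope-tagged form of the ribosomal protein Rpl22, and an antibody to the tag enriches RNA bound to those ribosomes. Astrocytes are named as the cells of interest in the title of the series, but the labels used here give neither the Cre driver nor the strain, age or sex, and precipitation was done 2 times for each animal with the products pooled.

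MHC class I molecules carry peptides from inside the cell to its surface, where CD8 T cells inspect them. A heavy chain, encoded in the mouse by H2-K1 and H2-D1 and by less variable genes such as H2-T23, pairs with the light chain beta-2 microglobulin. The chaperones calnexin and calreticulin and the disulfide isomerase Pdia3 help the heavy chain to fold in the endoplasmic reticulum. There the transporter formed by Tap1 and Tap2 delivers peptides from the cytosol, and tapasin (Tapbp) bridges it to the empty class I molecule. Resting brain tissue is known for low class I levels, and interferons are the classical inducers of the pathway.

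The start regions of the heavy chain genes H2-D1 and H2-K1 and of the light chain gene B2m are shown because these genes had all 3 MCAO libraries above all 3 controls, and those of Calr and Canx, chaperones with related roles, because both hold the ER stress element. The windows run from 250 bases before to 50 bases after an annotated start, are from RefSeq on build GRCm38.p6 and read along the gene. They lie at chr17:35262844-35263143 (plus strand) for H2-D1, chr17:34000298-34000597 (minus strand) for H2-K1, chr2:122147437-122147736 (plus strand) for B2m, chr8:84846882-84847181 (minus strand) for Calr and chr11:50325624-50325923 (minus strand) for Canx. Capitals mark matches to the motifs described after them. H2-K1 had 2 windows in the table, of which the first is shown.
H2-D1: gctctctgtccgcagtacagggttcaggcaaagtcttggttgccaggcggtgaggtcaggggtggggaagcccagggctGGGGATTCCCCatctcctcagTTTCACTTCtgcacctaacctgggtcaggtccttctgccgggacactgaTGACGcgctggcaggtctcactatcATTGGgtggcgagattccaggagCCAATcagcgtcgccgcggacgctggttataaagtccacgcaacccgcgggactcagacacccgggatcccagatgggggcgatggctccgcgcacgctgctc
H2-K1: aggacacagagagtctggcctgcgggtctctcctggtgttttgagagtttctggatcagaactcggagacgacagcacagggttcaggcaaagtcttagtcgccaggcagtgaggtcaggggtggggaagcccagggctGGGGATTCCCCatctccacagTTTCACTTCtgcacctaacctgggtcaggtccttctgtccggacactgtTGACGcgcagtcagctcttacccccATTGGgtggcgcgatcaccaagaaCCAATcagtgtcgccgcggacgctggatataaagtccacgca
B2m: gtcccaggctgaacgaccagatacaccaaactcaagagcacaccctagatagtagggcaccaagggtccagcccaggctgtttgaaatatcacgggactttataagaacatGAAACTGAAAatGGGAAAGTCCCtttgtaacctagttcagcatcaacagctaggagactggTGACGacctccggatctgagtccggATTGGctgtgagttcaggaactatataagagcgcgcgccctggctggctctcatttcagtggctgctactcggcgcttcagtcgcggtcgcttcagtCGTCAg
Calr: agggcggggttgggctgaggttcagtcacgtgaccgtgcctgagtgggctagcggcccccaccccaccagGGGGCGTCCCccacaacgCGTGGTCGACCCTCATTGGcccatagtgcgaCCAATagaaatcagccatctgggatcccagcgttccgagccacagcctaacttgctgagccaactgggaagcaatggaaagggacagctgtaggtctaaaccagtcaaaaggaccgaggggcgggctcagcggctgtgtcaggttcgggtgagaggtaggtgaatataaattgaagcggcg
Canx: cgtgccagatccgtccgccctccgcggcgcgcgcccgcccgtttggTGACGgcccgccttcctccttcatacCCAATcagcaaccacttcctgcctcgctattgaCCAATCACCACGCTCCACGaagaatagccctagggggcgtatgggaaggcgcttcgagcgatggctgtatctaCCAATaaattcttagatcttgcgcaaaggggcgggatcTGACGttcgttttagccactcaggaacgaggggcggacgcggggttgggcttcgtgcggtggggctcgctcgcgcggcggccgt

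Windows were found for 9 of the 10 genes by symbol. Both strands were searched for the following letters, where N is any base. The NF-kB form was GGGA and CC with 4 bases between them. The short interferon form was GAANNGAAA, and the long one was GAAA and GAAA with 2 bases between them, both taken from the interferon-stimulated response element. TGACG is the core of CREB-type sites and CCAAT the box bound by NF-Y. The endoplasmic reticulum (ER) stress element was CCAAT and CCACG with 9 bases between them, so that it includes an NF-Y box. In each of the heavy chain genes H2-D1 and H2-K1 the same series was met in the same order, with the NF-kB form on both strands in overlapping positions, the short interferon form, TGACG and a pair of CCAAT boxes. These windows aligned over 228 columns with 90.4% identity, and their longest identical stretch was 47 bases. The window of B2m held the long interferon form, then the NF-kB form, TGACG at 2 places and CCAAT. The window of H2-T23, a nonclassical heavy chain gene, held the long interferon form and CCAAT, and aligned to H2-D1 over 96 columns with 63.5% identity. Similar values were met outside the heavy chain genes. H2-D1 and B2m aligned over 110 columns with 60.9% identity, and Calr and Canx over 64 columns with 65.6%. The ER stress element was found in Calr and Canx, and in 0.119% of all 32851 windows of the table. The window of Calr also held the NF-kB form, and those of Canx, Tap1 and Pdia3 held TGACG. Of all windows 20.7% held the NF-kB form, 7.52% the short and 3.44% the long interferon form, 20.8% TGACG and 37.4% CCAAT, which all 9 windows of these genes held. These matches describe letters only, and binding was not measured.

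**Figure D1:**
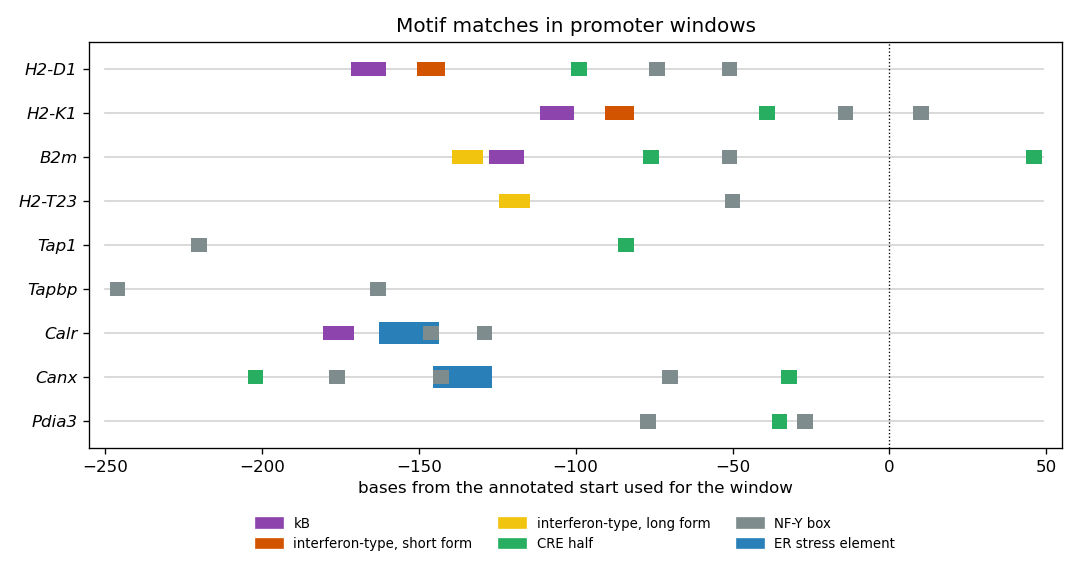
Motif matches in the windows of 9 genes, with the distance in bases from the annotated start on the x axis, 1 gene per line and boxes drawn to the length of each match. H2-D1 and H2-K1 show the same order of matches at a shifted distance from their annotated starts, and the ER stress element stands in Calr and Canx.

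The deposited values are read counts divided by 1 scale factor per library and are called scaled read counts. Recovered reads ranged from 882263 (MCAO 2) to 4567615 (MCAO 1) in MCAO libraries and from 1538901 (control 2) to 9519548 (control 1) in control libraries, so that 1 read was worth 3.11 scaled reads in MCAO 2 and 0.288 in control 1. The test covered the 12549 genes whose mean was 10 or more, all 10 class I genes among them, and was made with limma on log2(scaled read count + 1), and a gene was called at a Benjamini-Hochberg adjusted p under 0.05. Rpl22, the gene that carries the RiboTag epitope, stood at 251 ± 52.1 scaled reads after MCAO and 197 ± 32.8 in controls (SD, n = 3 each; log2 change 0.35, limma adjusted p = 0.330). Astrocyte markers summed to between 45424 and 59876 scaled reads in MCAO libraries and between 43774 and 72311 in controls over 14 genes. Within these sums Gfap had 5272 to 8028 scaled reads in MCAO libraries and 523 to 649 in controls. Of the 14 genes, 5 had positive and 9 negative log2 changes. Neuron markers were also present, summing to between 14296 and 17075 scaled reads after MCAO and between 15152 and 17628 in controls over 10 genes. Groups are compared within a gene or a ratio of genes, since transcript lengths were not used. Genes called low or abundant are so in scaled reads only. Gene positions are those of RefSeq on GRCm38.p6.

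After MCAO the class I heavy chain gene H2-D1 rose to 2.19 times its control mean, and the other 9 genes did not pass the test. Of the 10 genes 1 was called, where 3.08% of all tested genes were. That 1 was called higher, as were 2.30% of all tested genes, and 0 were called lower, as were 0.789% of them. Before adjustment p was under 0.05, with a higher level after MCAO, in 4 of the 10 genes and in 10.1% of all tested genes. The B2m, H2-K1, H2-D1 and Calr values of all 3 MCAO libraries lay above those of all 3 controls, which held for 12.4% of tested genes. Log2 changes were positive in 9 of the 10 genes, as in 48.7% of tested genes, with a median of 0.49 against -0.01 over all tested genes; without control 2 the median of the 10 was 0.29. Canx alone had a negative log2 change.

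**Figure D2:**
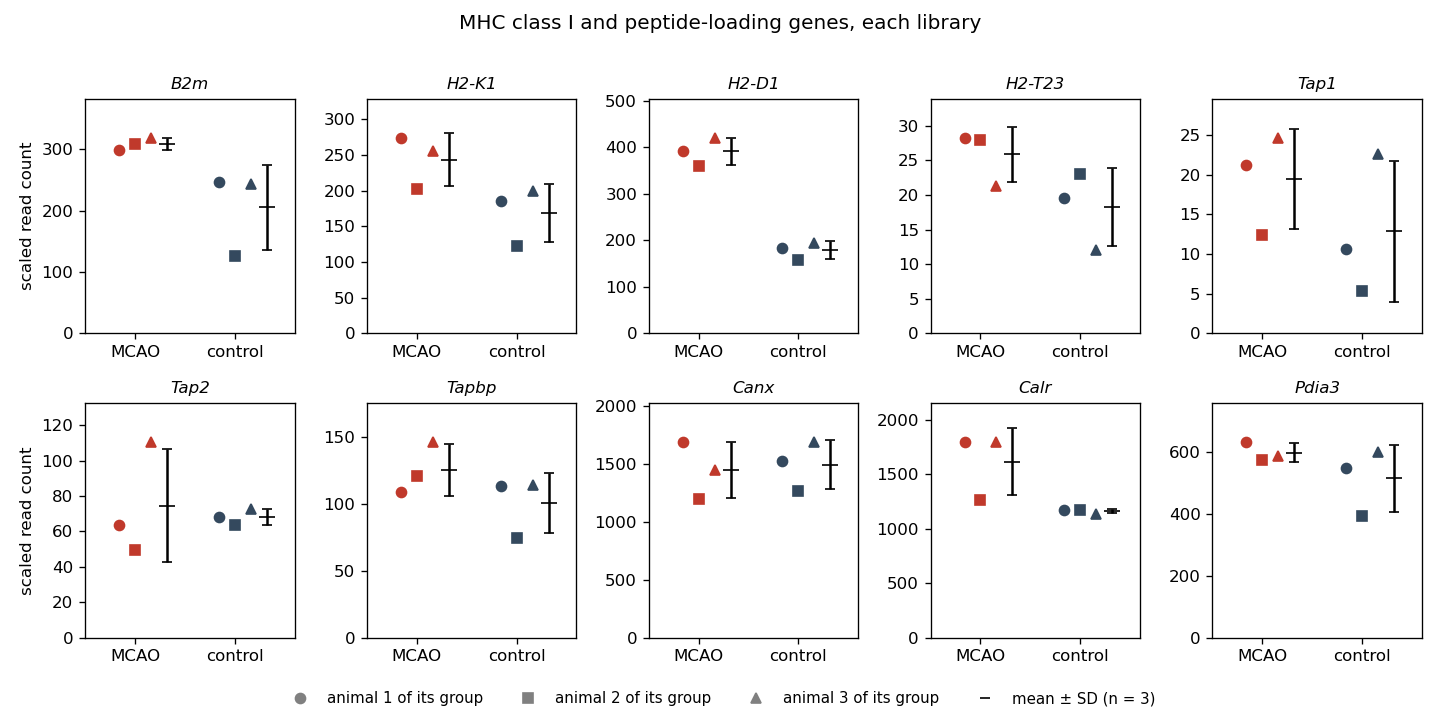
Scaled read counts (y axis, from 0) of each gene in the 3 MCAO libraries (left) and the 3 control libraries (right), with symbols for the animal's number within its group and a bar for mean ± SD (n = 3). H2-D1 is at 361 to 420 after MCAO and at 158 to 195 in controls, whereas the groups of Canx, Tap1, Tap2, Tapbp, Pdia3 and H2-T23 overlap.

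Among the heavy chains, H2-D1 (chromosome 17, 35263094 to 35267497) had 392.4, 361 and 420 scaled reads in MCAO 1, 2 and 3, against 184, 158 and 195 in controls 1, 2 and 3. The lowest MCAO library was thus well above the highest control. The log2 change was 1.13 (SE 0.15, 95% interval 0.80 to 1.45, limma adjusted p = 0.000775), and the ratio of the group means was 2.19. Behind these values were 667, 116 and 631 reads in the MCAO libraries and 640, 89 and 129 in the controls. H2-D1 ranked 50 by p among the tested genes. It was called under all 17 alternative settings, with log2 changes of 1.04 to 1.19 and adjusted p between 3.70e-08 and 0.0260.

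H2-K1 (chromosome 17, 33996012 to 34000619), the other classical heavy chain gene, had 274, 202 and 255 scaled reads in MCAO 1, 2 and 3, against 186, 122 and 199 in controls 1, 2 and 3. Its groups did not overlap, but MCAO 2, at 202, lay close to control 3, at 199. The log2 change was 0.54 (SE 0.20, 95% interval 0.12 to 0.97), short of the threshold (limma adjusted p = 0.159). Without control 2 it was 0.33 (adjusted p = 0.358). Within a library, the ratio of H2-D1 to H2-K1 was 1.43, 1.78 and 1.65 in MCAO 1, 2 and 3, against 0.992, 1.29 and 0.977 in controls 1, 2 and 3. The log2 ratio was therefore higher in every MCAO library, by 0.58 (SE 0.16; two-sided exact permutation p = 0.1, the smallest that 3 against 3 libraries can give, and 0.2 adjusted over the 4 ratios compared). Classical heavy chain genes are near copies of each other in mice, and the rule for reads that match more than 1 copy is not known from the labels, so the split of reads between H2-D1 and H2-K1 is uncertain.

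H2-T23 (chromosome 17, 36029977 to 36032701) encodes Qa-1, a nonclassical class I molecule that presents leader peptides of other class I chains to receptors of natural killer cells. It was a low gene, with 28.2, 28.0 and 21.3 scaled reads in MCAO 1, 2 and 3, against 19.6, 23.1 and 12.1 in controls 1, 2 and 3. MCAO 3 lay below control 2, so the groups overlapped. MCAO 2 rested on 9 reads and control 3 on 8, and the exact Poisson 95% interval of MCAO 2, covering counting error only, ran from 12.8 to 53.1 scaled reads. The log2 change of 0.52 (SE 0.38, 95% interval -0.29 to 1.33, limma adjusted p = 0.487) leaves a range that includes both a fall and a doubling, and was 0.26 without control 3.

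B2m (chromosome 2, 122147687 to 122153082), the light chain shared by class I molecules, had 299, 308 and 318 scaled reads in MCAO 1, 2 and 3, against 246, 126 and 243 in controls 1, 2 and 3. The MCAO libraries were close together and all above the controls, of which control 2 stood far below the others. The log2 change was 0.65 (SE 0.22, 95% interval 0.18 to 1.12, limma adjusted p = 0.127), and without control 2 it was 0.33 (adjusted p = 0.252). The ratio of H2-D1 to B2m was 1.31, 1.17 and 1.32 in MCAO libraries, against 0.749, 1.25 and 0.801 in controls, so that control 2 lay within the MCAO range (difference of log2 ratios 0.48, SE 0.24, two-sided exact permutation p = 0.2, adjusted 0.267).

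By Pearson correlation of log2 values over the 6 libraries, with 8368 other genes of a mean of at least 50 as candidates, the genes most like B2m were Pole4, H13, Fmc1, Hspb8 and Prr13. Their r with B2m lay between 0.990 and 0.997, and both groups and their difference enter these values. H13, which encodes signal peptide peptidase, had 210, 218 and 216 scaled reads in MCAO libraries, against 190, 105 and 172 in controls. Hspb8, a small heat shock protein gene, had 65.3, 74.6 and 83.9 scaled reads in MCAO libraries, against 47.2, 19.5 and 48.3 in controls. What these genes shared with B2m included the low value in control 2. None of the 5 was called by limma, with adjusted p between 0.0989 and 0.277.

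**Figure D3:**
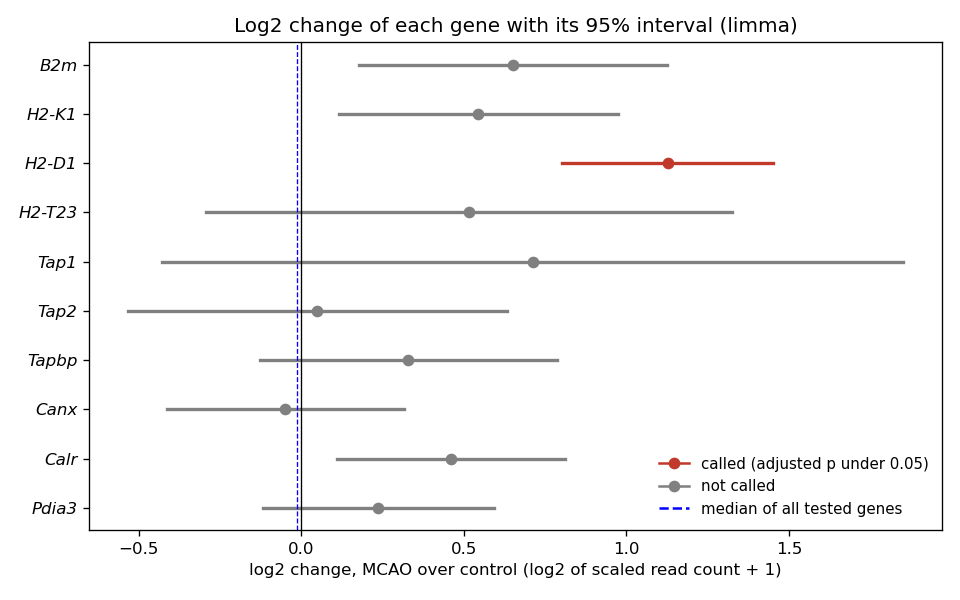
Log2 change of each gene, MCAO over control, on the log2(scaled read count + 1) scale (x axis), with its limma 95% interval. H2-D1 is the gene called; the intervals of B2m, H2-K1 and Calr also lie above 0 before adjustment, and those of the other 6 genes span 0.

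The peptide transporter genes lie within the MHC region of chromosome 17. Tap1 (34187556 to 34197225) had 21.2, 12.4 and 24.6 scaled reads in MCAO 1, 2 and 3, against 10.6, 5.32 and 22.6 in controls 1, 2 and 3. Control 3 was above MCAO 1 and MCAO 2, and MCAO 2 rested on 4 reads and control 2 on 3. The log2 change of 0.71 had a wide 95% interval of -0.43 to 1.85 (SE 0.53, limma adjusted p = 0.494), and was 0.25 without control 2 and 1.199 without control 3. Tap2 (34204479 to 34216321) had 63.5, 49.8 and 111 scaled reads in MCAO libraries, against 68.2, 63.9 and 72.4 in controls. MCAO 3 was above every control and MCAO 2 below every control, and MCAO 1 was close to control 2. Exact Poisson 95% intervals were 52.1 to 76.7 in MCAO 1, 28.4 to 80.8 in MCAO 2 and 44.7 to 88.4 in control 2. The log2 change of Tap2 was 0.05 (SE 0.27, 95% interval -0.53 to 0.63, limma adjusted p = 0.945). It turned to -0.27 without MCAO 3, against 0.30 without MCAO 2.

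Tap1 starts 225 bases from Psmb9, an immunoproteasome subunit gene on the opposite strand, and their windows overlapped by 275 bases. Psmb9 was below the level tested, at 3.53, 9.33 and 4.66 scaled reads in MCAO libraries, against 3.74, 17.7 and 9.05 in controls, with 3 to 13 reads in any library. Tapbp (chromosome 17, 33919478 to 33929290), the tapasin gene, had 109, 121 and 147 scaled reads in MCAO libraries, against 113, 74.5 and 115 in controls. MCAO 1 lay below controls 1 and 3. Its log2 change was 0.33 (SE 0.21, 95% interval -0.13 to 0.79, limma adjusted p = 0.424). It was 0.13 without control 2 and 0.21 without MCAO 3.

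The folding factors were abundant and so were measured with less counting error. Calr (chromosome 8, 84842088 to 84846931), the calcium-binding chaperone calreticulin, had 1793, 1260 and 1794 scaled reads in MCAO 1, 2 and 3, against 1171, 1167 and 1136 in controls 1, 2 and 3. The controls lay within a narrow range, and MCAO 2 stood much nearer to them than MCAO 1 and MCAO 3. The log2 change was 0.46 (SE 0.16, 95% interval 0.11 to 0.81), short of the threshold with limma (adjusted p = 0.145). It passed with DESeq2 on recovered reads (0.49, adjusted p = 0.0435) and with limma without MCAO 2 and control 2, the shallowest library of each group (0.64, adjusted p = 0.00645). Without MCAO 2 alone it was 0.63 (adjusted p = 0.0590).

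Canx (chromosome 11, 50293957 to 50325673), the membrane-bound chaperone calnexin, had 1689, 1201 and 1452 scaled reads in MCAO libraries, against 1526, 1265 and 1687 in controls. The groups overlapped almost entirely. The log2 change was -0.05 (SE 0.17, 95% interval -0.41 to 0.31, limma adjusted p = 0.910), an interval that leaves out a doubling and a halving. It turned to 0.08 without MCAO 2 and to 0.04 without control 3. The ratio of Calr to Canx was 1.06, 1.05 and 1.24 in MCAO 1, 2 and 3, against 0.767, 0.923 and 0.674 in controls 1, 2 and 3. Every MCAO library was above every control, with log2 ratios higher by 0.51 (SE 0.15, two-sided exact permutation p = 0.1, adjusted 0.2).

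Pdia3 (chromosome 2, 121413902 to 121438687), the isomerase also called ERp57, had 631, 572 and 587 scaled reads in MCAO libraries, against 548, 394 and 601 in controls. Control 3 lay above MCAO 2 and MCAO 3, and control 2 was far below all other libraries. Its log2 change was 0.24 (SE 0.17, 95% interval -0.12 to 0.59, limma adjusted p = 0.466). Without control 2 it was 0.057, and without control 3 it was 0.36. The ratio of Calr to Pdia3 overlapped between groups, at 2.84, 2.20 and 3.05 in MCAO libraries, against 2.14, 2.96 and 1.89 in controls (difference of log2 ratios 0.22, SE 0.24, two-sided exact permutation p = 0.4, adjusted 0.4).

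**Figure D4:**
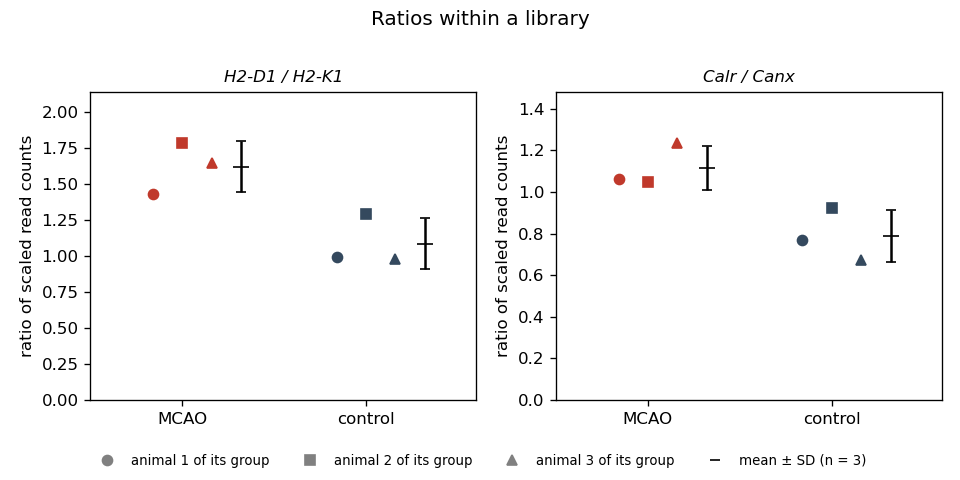
Ratio of scaled read counts (y axis, from 0) of H2-D1 to H2-K1 (left panel) and of Calr to Canx (right panel) in the 3 MCAO and 3 control libraries, with bars for mean ± SD (n = 3). In both panels the 3 MCAO libraries stand above the 3 controls, at 1.43 to 1.78 against 0.977 to 1.29 for the heavy chains and at 1.05 to 1.24 against 0.674 to 0.923 for the chaperones.

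The shallowest library of each group was often the low one. Of the 10 genes, MCAO 2 was the lowest MCAO library in 7, and in 38.8% of all tested genes. Control 2 was the lowest control in 8 of the 10, and in 38.6% of all tested genes. The part of depth in these values was not tested.

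Calls among other genes of the pathway are given by list, where 3.08% of all tested genes were called. In the list of peptide supply and trimming, 1 of 10 tested genes rose and 0 fell, with a median log2 change of 0.09. Log2 changes were positive in 6 of the 10 and negative in 4. The gene called was Psmb8, an interferon-inducible catalytic subunit of the immunoproteasome, with 28.8, 24.9 and 29.3 scaled reads in MCAO libraries, against 5.76, 10.6 and 4.53 in controls. The log2 change was 1.92 (SE 0.46, limma adjusted p = 0.0394), on 3 to 49 reads in a library. Psmb8 was not called without MCAO 1 (adjusted p = 0.111), MCAO 2 (0.0761), MCAO 3 (0.152), control 1 (0.105) or control 3 (0.0976), or with quantile normalisation (0.0536), and its log2 change was 1.16 with a pseudocount of 10. Psme1, which encodes a subunit of the interferon-inducible proteasome activator and was chosen after its values were seen, had 79.4, 140.0 and 108 scaled reads in MCAO libraries, against 66.2, 58.5 and 77.0 in controls. Its groups did not overlap, and its log2 change was 0.66 (SE 0.23, adjusted p = 0.143).

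Of 23 other class I heavy chain and class I-like genes, 6 were tested and 0 were called by limma, edgeR or DESeq2 (median log2 change 0.31). Before adjustment, limma gave p under 0.05 for 1 higher and 1 lower gene. Mr1, which presents vitamin metabolites to T cells, had 70.0 ± 11.1 scaled reads after MCAO and 103.5 ± 13.7 in controls (log2 change -0.56, SE 0.21, limma adjusted p = 0.164). Fcgrt, the heavy chain of the neonatal Fc receptor, which also pairs with beta-2 microglobulin, had 76.9 ± 8.83 scaled reads after MCAO and 63.7 ± 5.87 in controls (0.27, adjusted p = 0.524). Both genes had groups that did not overlap, Mr1 lower and Fcgrt higher after MCAO. H2-Bl, a class I gene chosen after its values were seen, had 13.5, 28.0 and 9.99 scaled reads in MCAO libraries, against 9.21, 5.32 and 3.02 in controls (1.39, SE 0.60, adjusted p = 0.227).

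Of 12 tested regulators of class I transcription limma, edgeR and DESeq2 each called 0, with a median log2 change of 0.03. At an unadjusted limma p under 0.05 there were 1 higher and 1 lower gene. Irf1, an interferon regulatory factor gene, had 6.47, 21.8 and 18.6 scaled reads in MCAO libraries, against 10.6, 21.3 and 7.55 in controls (log2 change 0.20, SE 0.56, limma adjusted p = 0.885). Creb1, the most abundant of the list, had 136 ± 14.8 scaled reads after MCAO and 187 ± 12.3 in controls (-0.46, adjusted p = 0.151), and Nfyc, an NF-Y subunit gene, had 126 ± 8.45 scaled reads after MCAO and 108 ± 2.24 in controls (0.22, adjusted p = 0.515). Rela, the p65 subunit gene of NF-kB, chosen after its values were seen, had 88.8, 137 and 117 scaled reads in MCAO libraries, against 80.01, 54.99 and 84.5 in controls, with no overlap (0.64, SE 0.23, adjusted p = 0.154). Of the 12 tested regulators, 6 had positive and 6 negative log2 changes. Nfkb1, another NF-kB subunit gene of the list, was at -0.33 (SE 0.30, limma adjusted p = 0.578). Nlrc5, the class I transactivator, was not found by symbol in the table and so was not analysed here.

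In the list of ER glycoprotein folding, 1 of 21 genes rose and 0 fell, with a median log2 change of 0.34. Log2 changes were positive in 17 of the 21, against 48.7% of all tested genes. The gene called was Ppib, the ER cyclophilin B, with 319, 345 and 356 scaled reads in MCAO libraries, against 237, 160 and 190 in controls (log2 change 0.81, SE 0.17, limma adjusted p = 0.0173). Ppib was not called without MCAO 3 (adjusted p = 0.0884), without control 3 (0.0562) or with no intensity trend (0.134). Hspa5, the ER chaperone BiP, had 749 ± 154 scaled reads after MCAO and 653 ± 42.8 in controls (0.18, adjusted p = 0.593), and Hsp90b1, the ER member of the Hsp90 family, had 1069 ± 97.3 scaled reads after MCAO and 886 ± 168 in controls (0.29, adjusted p = 0.369). Windows were found for 17 of the 21 genes, and the ER stress element that Calr and Canx hold was met in 5 of them, Creld2, Dnajc3, Hsp90b1, Hspa5 and Pdia6. Of these 5, chosen for the motif, the log2 change was highest in Creld2 and Pdia6, at 0.56 each, and lowest in Dnajc3, at -0.01, and limma called 0 of them. Pdia6, a disulfide isomerase gene, had 361, 379 and 333 scaled reads in MCAO libraries, against 244, 222 and 264 in controls. Its groups did not overlap, and it was called by edgeR and DESeq2 on recovered reads but not by limma (adjusted p = 0.0559).

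MHC class II genes, which present peptides from outside the cell, were low. Of 10 listed genes 3 were tested and limma, edgeR and DESeq2 each called 0, with a median log2 change of -0.12 and 1 gene, higher, at an unadjusted limma p under 0.05. Cd74, the invariant chain gene, had 18.2, 40.4 and 18.0 scaled reads in MCAO libraries, against 6.33, 15.97 and 6.04 in controls (1.37, SE 0.51, limma adjusted p = 0.166), and H2-DMa, which helps to load class II molecules, had 10.6, 31.1 and 9.99 scaled reads in MCAO libraries, against 13.5, 26.6 and 12.1 in controls (-0.12, adjusted p = 0.820). Of 8 listed receptor genes Lilrb4a, an inhibitory receptor gene of myeloid cells, was the gene tested and rose, with 34.7, 15.6 and 34.0 scaled reads in MCAO libraries, against 1.44, 1.00 and 1.51 in controls, of which control 2 stood at the floor of the table (log2 change 3.57, SE 0.63, limma adjusted p = 0.00667). With controls this near the floor the size depends on the setting, from 1.71 with a pseudocount of 10 to 4.60 with DESeq2 on recovered reads. Lilrb4a was not called without MCAO 1 (adjusted p = 0.0731) or MCAO 3 (0.0987).

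**Figure D5:**
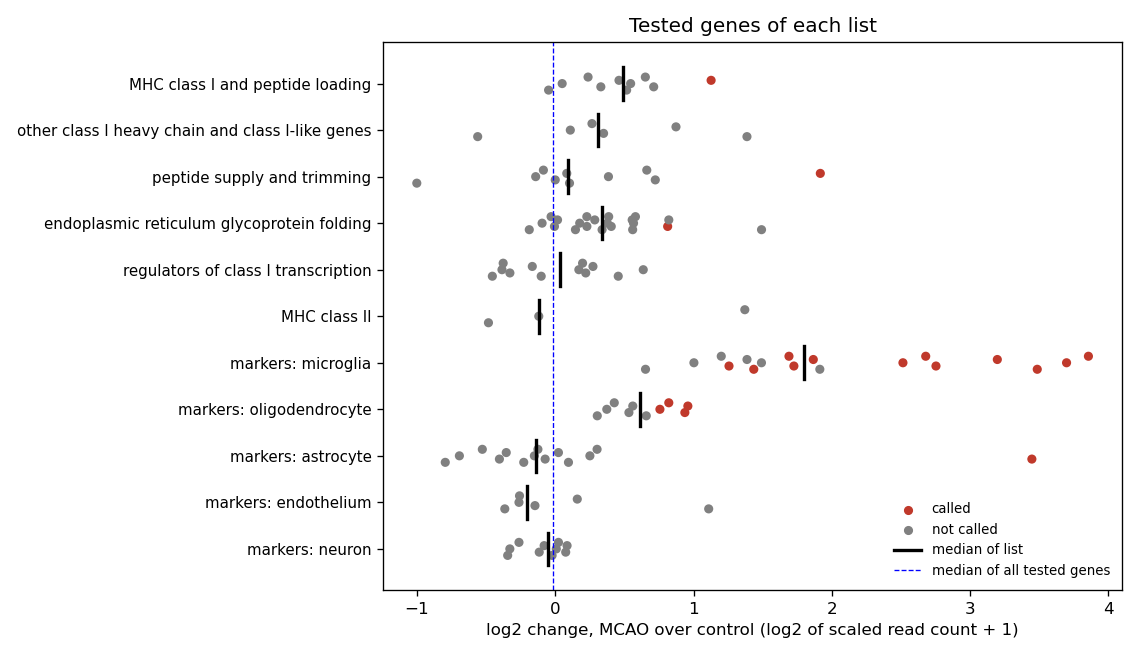
Log2 change, MCAO over control (x axis), of every tested gene of the class I genes, of 5 further antigen presentation and folding lists and of 5 lists of cell type markers, with called genes in red and list medians as black bars. Class I genes stand mostly right of the median of all tested genes, with a median of 0.49. Oligodendrocyte markers, with a median of 0.61, and microglia markers, with a median of 1.8, stand further right.

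A change in the number of cells of a type, in RNA per cell or in the enrichment by precipitation cannot be told apart in these libraries. No library of unprecipitated RNA was compared. Microglia markers were higher in the same libraries as H2-D1. They summed to between 2554 and 3495 scaled reads in MCAO libraries and between 717 and 967 in controls, and of 18 tested 12 rose and 0 fell, with a median log2 change of 1.8. Cd68 and Tyrobp, genes of phagocytes, had the largest changes among them, at 3.86 (SE 0.47) and 3.70 (SE 0.52). Their controls were low, at 4.03, 1.77 and 9.05 scaled reads for Cd68 and 4.03, 1.77 and 13.6 for Tyrobp. In control 2, 1 read was worth 1.77 scaled reads, so the sizes of both changes are uncertain. Of 18 blood myeloid markers 3 were tested, of which Lyz2 and Csf3r rose, by 2.42 (SE 0.28) and 2.51 (SE 0.57). The other tested gene, the integrin gene Itga4, was not called, with 28.0 ± 6.18 scaled reads after MCAO and 31.9 ± 6.69 in controls (log2 change -0.19, limma adjusted p = 0.796). The 3 in the table summed to between 139 and 147 scaled reads in MCAO libraries and between 40.6 and 63.4 in controls. Others of the list, S100a8, S100a9, Ly6c2 and Ccr2 among them, were not found by symbol in the table and so were not analysed here. Whether the Lyz2 and Csf3r values come from blood cells or from microglia was not tested. Oligodendrocyte markers summed to between 12680 and 16139 scaled reads after MCAO and between 8592 and 9734 in controls, with 4 of 10 risen and 0 fallen. All 10 had positive log2 changes, with a median of 0.61, and DESeq2 called 7 of them higher. The part of these cells in the H2-D1 result was not tested.

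Of 14 endothelial markers 6 were tested and limma, edgeR and DESeq2 called 0, with 0 at an unadjusted limma p under 0.05 (median log2 change -0.20), and the 8 in the table summed to between 125 and 155 scaled reads in MCAO libraries and between 127 and 166 in controls. Of 8 mural cell markers 3 were tested and 0 were called by the same tools, with 1 lower at an unadjusted limma p under 0.05 (median -0.32). Of 10 neuron markers 0 were called by the same tools, with 0 at an unadjusted limma p under 0.05 and a median of -0.05. Of 14 astrocyte markers Gfap, the intermediate filament gene of reactive astrocytes, was the gene called by limma, with 6372 ± 1460 scaled reads after MCAO and 576 ± 64.9 in controls, and the list median was -0.14, and DESeq2 also called Slc1a3 and Sparcl1 lower. Of 14 lymphocyte markers Cd4 and Trac were in the table, with a sum of 9.99 to 28.0 scaled reads in MCAO libraries and 31.9 to 45.2 in controls. Trac, the 1 tested, was not called (log2 change -0.53), and the others, Cd8a and Cd3e among them, were not analysed here.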

How the data were processed

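Ribosome-bound RNA of 6 mice, 3 MCAO and 3 control, was made into polyA libraries with the Illumina TruSeq kit, per the labels' protocols. The authors deposited 1 table of normalised signal per gene and library. Apart from the lowest values, its columns are whole multiples of their own step, so the signal is a read count divided by 1 scale factor. Division by the step gave whole reads, to within 0.1 read, in 99.95% of the values over 1 of control 1 and in 100% of them in each other library. Nothing is listed below 1. The submitters' processing notes name DESeq2, HISAT2, CASAVA 1.8, Partek 6.6 and R 3.3.1, without roles, and the build mm10. For counting, strand setting, gene filter and joining of technical replicates, the method was not given in the sources used here. Groups follow the labels. Replicate numbers only name a library.

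Computed here were limma 3.58.1 fits in R 4.3.3 (pseudocount 1, mean of at least 10, intensity trend, two-sided, Benjamini-Hochberg over 12549 genes), tested first on simulated data. Ratios between genes were compared by exact permutation over libraries. Alternatives were edgeR 4.0.16 and DESeq2 1.42.0 on recovered reads, other pseudocounts, filters, scalings and moderation, and libraries left out. Promoter windows are from RefSeq (GRCm38.p6, the assembly that mm10 stands for) and were aligned with Biopython 1.88. Genes and lists were chosen with earlier results of these data known. Beside the class I genes, the text names in each list the called genes with the largest changes, at most 2, or else the 2 most abundant, 5 genes most like B2m, and Rpl22, Gfap, Irf1, Nlrc5, Psmb8, Psmb9, Hspa5 and Hsp90b1; 1 further gene of this rule is not reported here, and others were chosen after their values were seen. Of endothelial, mural, neuron and oligodendrocyte markers only the list values are given. Intervals of reads cover counting error only. Limma p-values rest on the spread among 3 animals a group, moderated by that of all tested genes. Those of the ratios rest on regrouping the libraries.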

Additional observations from a re-analysis of the deposited data

How the results depend on the processing

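The call of H2-D1 held under all 17 alternatives, and no alternative called any of the 10 genes lower. Genes called numbered 2 rather than 1 with DESeq2 on recovered reads and without the shallowest library of each group, where Calr was added. The median log2 change of the 10 genes, 0.49 in the main fit, ran from 0.29 without control 2 to 0.54 without MCAO 2 over the alternatives. With 1 library left out, the log2 change of Tap2 ran from -0.27 (without MCAO 3) to 0.30 and that of Canx from -0.17 to 0.079 (without MCAO 2), with 0.04 without control 3; both changed sign. Over all tested genes 387 were called, 520 with edgeR, 549 with DESeq2, 559 without the shallowest library of each group, 157 with no intensity trend, and between 144 (without MCAO 3) and 304 (without control 2) with 1 library left out. The share of higher genes among those called was 74.4%, against 88.5% with no intensity trend, 90.2% without control 1, 89.8% without control 3, 63.9% without MCAO 1 and 58.7% without the shallowest library of each group. With a mean of at least 50 required, H2-T23 and Tap1 were not tested. Depth limits the low genes, with Tap1, H2-T23, Psmb8 and Psmb9 at 3 to 13 reads in the shallowest library of each group. No paired analysis was possible because the labels give the animals no shared numbers.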
